A study of Mus musculus with 6 samples.

Results

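The genes described here are 40 genes of fatty acid oxidation in mouse liver, chosen by name with earlier results of these data known. They cover the peroxisomal enzymes, the mitochondrial enzymes and a small set of ketone body and regulatory genes. For each gene the probe set that names it alone, and that has the highest mean signal over all arrays, was taken. This gave a value for 38 of the 40, out of 22180 genes in all; Acot8 and Acsl1 were not analysed here. The samples are livers of male C57BL/6 mice, 1 expression array per mouse. In the GFP group (mice 13, 21 and 6) the liver expressed green fluorescent protein, and in the SHH group (mice 26, 28 and 31) it expressed Sonic Hedgehog, the ligand of the Hedgehog pathway. Both groups received their gene by hydrodynamic transfection, in which plasmid DNA is pushed into the liver by a fast, large-volume injection and only some hepatocytes take it up. The sources used here give neither the promoter that drives the genes, nor the time since injection, nor the age of the mice.

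Fatty acids are activated to acyl-CoA and shortened by repeated rounds of oxidation, hydration, oxidation and thiolysis. Mitochondria take in most chains through the carnitine shuttle and pass the electrons to the respiratory chain. Peroxisomes shorten very long, branched and dicarboxylic chains first and hand the products on. In liver many genes of both routes are targets of PPARA, a nuclear receptor activated by fatty acids, and the acetyl-CoA formed feeds the making of ketone bodies in fasting.

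Each array gave 41345 log2 signals. Across probe sets, livers of a group correlated at r = 0.975 to 0.979 and livers of different groups at r = 0.971 to 0.981, so the groups did not stand apart as a whole. Shh signal was 3.43 to 3.86 in GFP livers and 4.28 to 4.63 in SHH livers. The hepatocyte gene Alb was the highest signal on every array, between 13.66 and 13.72, so its evenness at the top of the scale says little. All 16 measured hepatocyte markers lay above the median of every array.

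Most fatty acid oxidation genes had a lower mean in SHH livers. Of the 38 measured, 33 had a lower and 5 a higher mean (Abcd2, Crot, Fgf21, Acsl5 and Acadvl), where 56.2% of all genes had a lower mean. No member passed the Benjamini-Hochberg threshold of 0.05 over all genes in limma, and neither did any other gene (0 of 22180, or 0%). This linear model moves the spread of each gene partway toward a value estimated from all genes. At an unadjusted p under 0.05, limma had 12 members lower and 1 higher, against 4.01% and 3.33% of all genes. With the arrays set to equal medians, 8 members were lower at that p (3.05% of all genes). The signal of every SHH liver lay below that of every GFP liver for 15 members (39.5%), against 7.25% of all genes, and above it for 0 members, against 5.26%. Lists of peroxisome assembly and of citrate cycle and respiratory chain genes also had mostly lower means, as given below. The median difference, SHH minus GFP, was -0.22 on the log2 scale over the members and -0.03 over all genes. These genes share regulators and the same 6 livers, so they are not independent observations. They were also chosen with earlier results of these data known, so the counts are a description and not a test. A lower signal in whole liver cannot tell fewer hepatocytes from less RNA per hepatocyte.

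**Figure D1:**
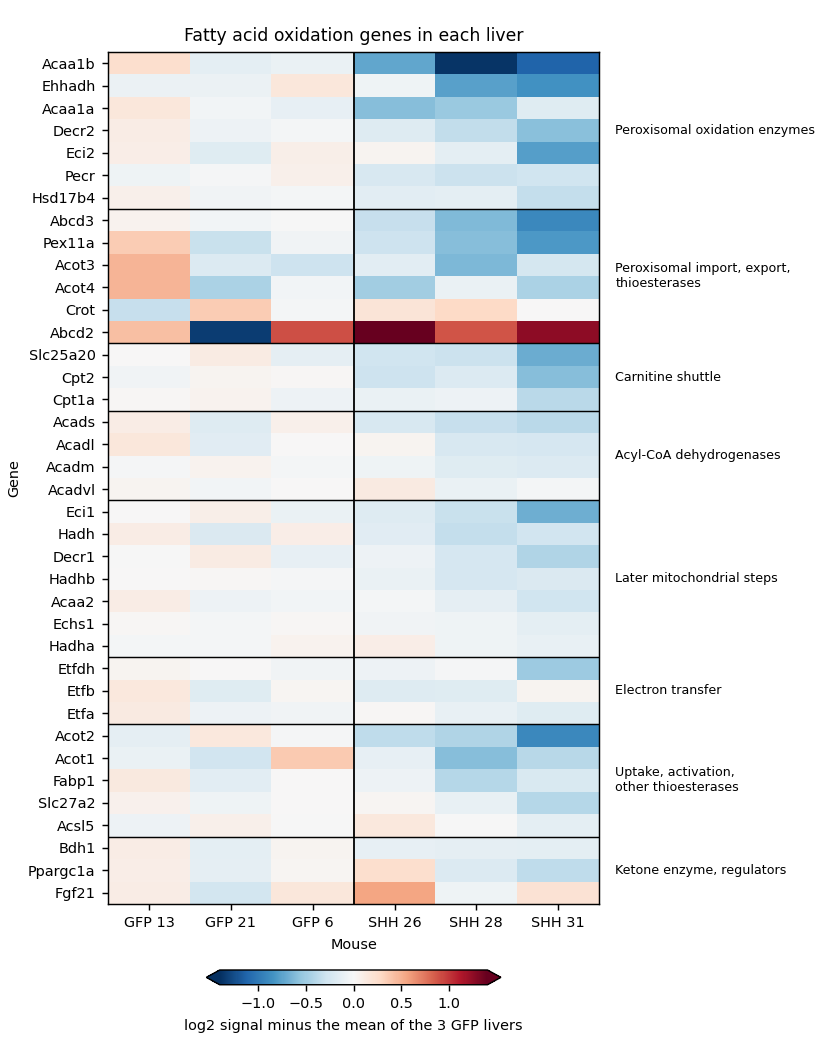
Log2 signal of each of the 38 measured genes in each liver, minus the mean of the 3 GFP livers (colour scale, red higher and blue lower, with colours held at the ends of the scale). Rows are genes grouped by role and columns are mice; the SHH 31 column holds the lowest SHH value for 25 genes, and Abcd2 is the one gene in strong red.

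The shift was uneven among the SHH livers. The median over members of the deviation from the GFP mean amounted to -0.09 for SHH 26, -0.19 for SHH 28 and -0.31 for SHH 31, against -0.07 to 0.07 in GFP livers. SHH 31 had the lowest of the 3 SHH signals for 25 members, SHH 28 for 10 and SHH 26 for 3. Without SHH 31, 4 members had an unadjusted p under 0.05 downward in place of 12, with 4.22% of all genes. Leaving out GFP 13 gave 6 members (2.85% of all genes) and leaving out GFP 6 gave 7 (3.31%).

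All 7 peroxisomal oxidation enzymes had a lower mean in SHH livers, with a median difference of -0.37. At an unadjusted p under 0.05 (limma) 5 of them were lower, against 4.01% of all genes, and 0 passed over all genes. Acaa1b, a peroxisomal thiolase that makes the last cut of each round, had a log2 signal of 9.83 in GFP 13, 9.46 in GFP 21 and 9.51 in GFP 6. The SHH livers had 8.87 (SHH 26), 8.23 (SHH 28) and 8.47 (SHH 31). The groups were well apart, with the lowest signal in SHH 28. As in the rest of the text, values of a group are given in this order of mice. The difference of -1.08 (95% interval -1.50 to -0.66), 2.11-fold lower, had the fifth smallest p of all genes that were lower in SHH livers (rank 5), and an adjusted p of 0.302 in limma. Leaving out SHH 26 made it -1.25 with an adjusted p of 0.0488, the 1 call among the members in any setting tried; 16 genes (0.0721%) were then called lower and 30 (0.135%) higher.

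Acaa1a, its close paralog on the same chromosome, gave 7.78, 7.59 and 7.51 in GFP livers and 7.03, 7.11 and 7.46 in SHH livers. The groups did not overlap, but SHH 31 came within reach of GFP 6, in contrast to its place for most members. Its difference was -0.43 (95% interval -0.77 to -0.08; limma, adjusted p = 0.612). The sequences of both genes are close enough that their probes may share signal, and whether the 2 differences differ was not tested. The 250 bases before the annotated start of each gene (RefSeq, GRCm38.p6) are shown to compare the pair, with GC boxes (GGGCGG or its complement CCGCCC) and CCAAT boxes (CCAAT or ATTGG) in capitals. Acaa1b lies at chr9:119157094-119157343 on the minus strand and Acaa1a at chr9:119341044-119341293 on the plus strand.
Acaa1b: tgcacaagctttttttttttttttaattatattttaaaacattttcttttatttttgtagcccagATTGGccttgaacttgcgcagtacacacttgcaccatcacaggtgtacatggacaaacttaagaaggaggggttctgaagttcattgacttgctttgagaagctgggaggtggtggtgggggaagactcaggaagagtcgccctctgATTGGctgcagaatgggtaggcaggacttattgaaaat
Acaa1a: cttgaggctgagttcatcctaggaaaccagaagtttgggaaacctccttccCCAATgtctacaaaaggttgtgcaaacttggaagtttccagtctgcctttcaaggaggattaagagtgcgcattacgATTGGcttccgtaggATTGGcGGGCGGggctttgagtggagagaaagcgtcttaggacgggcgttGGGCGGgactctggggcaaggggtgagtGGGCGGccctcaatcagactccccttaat
The Acaa1b stretch held 2 CCAAT boxes and 0 GC boxes, and the Acaa1a stretch 3 of each.

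Ehhadh, the L-bifunctional enzyme that carries out the hydration and the second oxidation, gave 9.48, 9.48 and 9.72 in GFP livers and 9.49, 8.79 and 8.70 in SHH livers. SHH 26 lay among the GFP livers, and SHH 28 and SHH 31 lay below all of them. The difference was -0.56 (95% interval -1.03 to -0.09; limma, adjusted p = 0.624), and -0.81 without SHH 26. Hsd17b4, the D-bifunctional enzyme used for branched and very long chains, differed by -0.21, with 10.60 to 10.79 in SHH livers against 10.88 to 11.01. Its groups did not overlap, although its 95% interval of -0.49 to 0.07 spans 0.

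Decr2 and Eci2, auxiliary enzymes that prepare unsaturated chains, and Pecr were also lower in mean. Decr2, the peroxisomal dienoyl-CoA reductase, gave 10.30, 10.13 and 10.17 in GFP livers and 10.02, 9.85 and 9.62 in SHH livers, a difference of -0.37 (limma, adjusted p = 0.634). Pecr, an enoyl-CoA reductase, ran from 8.85 to 8.93 in SHH livers and from 9.09 to 9.23 in GFP livers. Neither gene's groups overlapped, and the SHH spread of Pecr was small (SD 0.04, n = 3). Eci2, the peroxisomal enoyl-CoA isomerase, differed by -0.29, a value that SHH 31 (8.20) carried: without that mouse it was -0.05.

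**Figure D2:**
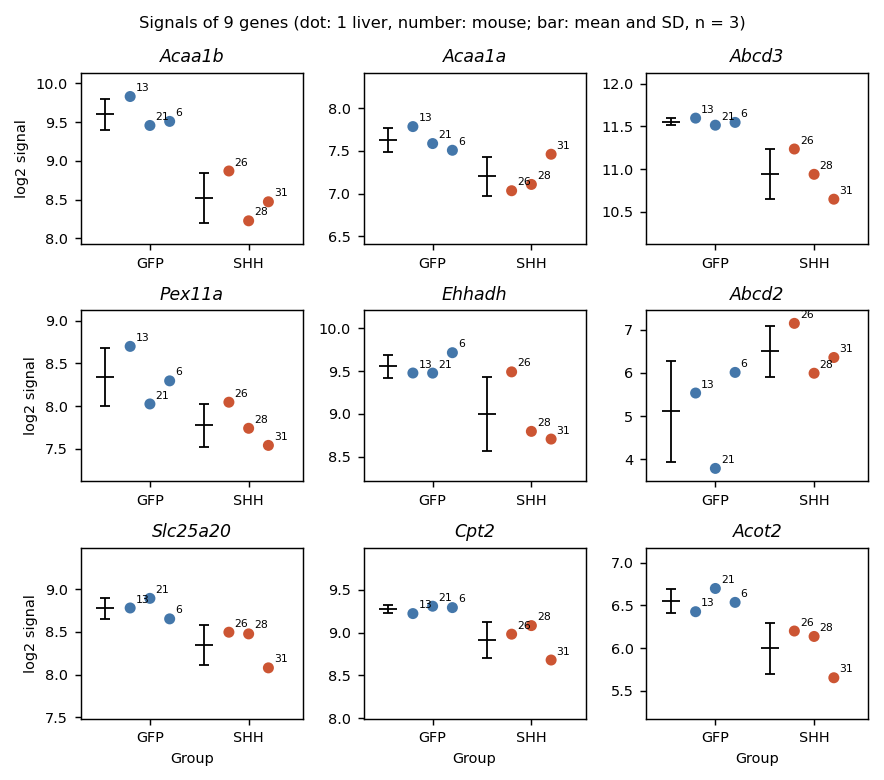
Log2 signals of 9 genes in each liver (dots, with mouse numbers; blue GFP, red SHH), with the mean and SD of each group (black bars, n = 3); the signal axis differs between panels. Acaa1b, Acaa1a, Abcd3, Slc25a20, Cpt2 and Acot2 do not overlap between groups, Pex11a and Ehhadh do, and Abcd2 is higher on average in SHH livers with GFP 21 far below the other livers.

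Transport into the peroxisome gave differences of opposite sign. Abcd3, which brings long and branched acyl-CoA into the organelle, gave 11.60, 11.51 and 11.55 in GFP livers and 11.24, 10.94 and 10.65 in SHH livers. The GFP livers were close together (SD 0.04, n = 3), and every SHH liver lay below them. Its difference was -0.61 (95% interval -0.97 to -0.25; 1.53-fold lower; limma, adjusted p = 0.474), the smallest p of the members after Acaa1b. Abcd2, a transporter of very long chains, gave 5.53, 3.78 and 6.01 in GFP livers and 7.15, 5.99 and 6.36 in SHH livers. SHH 28 lay just under GFP 6, so the groups overlapped, and the GFP livers spread the more (SD 1.17, n = 3). The difference of 1.39 (95% interval 0.21 to 2.57; limma, adjusted p = 0.631) became 0.73 without GFP 21 and 1.84 without GFP 6.

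Pex11a, a membrane protein that promotes peroxisome division, gave 8.70, 8.02 and 8.30 in GFP livers and 8.05, 7.74 and 7.54 in SHH livers. SHH 26 and GFP 21 were nearly equal, and the other 2 SHH livers were below all GFP livers, for a difference of -0.56 (limma, adjusted p = 0.608). Crot, which makes shortened chains into carnitine esters for export, differed by 0.15 and lay between 11.29 and 11.97 in all livers, with both extremes in GFP livers. It was -0.01 without GFP 13. The thioesterases Acot3 and Acot4, which release free acids from acyl-CoA inside the peroxisome, each differed by -0.34, and by -0.10 without GFP 13, whose signals of 5.36 and 5.95 were the highest. A second probe set of Acot4 differed by -0.18.

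The carnitine shuttle carries long chains across the mitochondrial membranes, and the means of all 3 genes were lower in SHH livers, with no overlap between groups. Slc25a20, the carrier of acylcarnitine across the inner membrane, gave 8.78, 8.89 and 8.65 in GFP livers and 8.50, 8.48 and 8.08 in SHH livers. The difference was -0.42 (95% interval -0.77 to -0.08; limma, adjusted p = 0.611). Cpt2, which turns acylcarnitine back into acyl-CoA, gave 9.22, 9.31 and 9.29 in GFP livers and 8.98, 9.08 and 8.68 in SHH livers, a difference of -0.36 (limma, adjusted p = 0.645). In both genes SHH 31 was lowest. Cpt1a, the regulated entry enzyme, differed less, by -0.18 (95% interval -0.48 to 0.12): the SHH livers gave 10.04, 10.06 and 9.75 against 10.06 to 10.18 in GFP livers, and SHH 28 lay just below GFP 6.

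The mitochondrial acyl-CoA dehydrogenases take the first oxidation step, each for a range of chain lengths. Acads, for short chains, had the widest difference at -0.31 (95% interval -0.60 to -0.01; limma, adjusted p = 0.672), with 8.96, 8.67 and 8.93 in GFP livers and 8.63, 8.53 and 8.48 in SHH livers. Acadm and Acadl, for medium and long chains, both differed by -0.14, and Acadvl, for very long chains, by 0.00 (95% interval -0.27 to 0.27). Acadm did not overlap between groups (10.84 to 10.97 against 11.00 to 11.08), while Acadl and Acadvl did.

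Of the 7 genes for the later mitochondrial steps, all had a lower mean, with a median difference of -0.18. Eci1, the isomerase for unsaturated chains, gave 8.87, 8.95 and 8.77 in GFP livers and 8.68, 8.55 and 8.18 in SHH livers, with no overlap and a difference of -0.39 (limma, adjusted p = 0.656). The reductase Decr1 and the dehydrogenase Hadh each differed by -0.25, with overlapping groups. The trifunctional protein handles long chains: its alpha subunit gene Hadha differed by -0.02 (95% interval -0.29 to 0.25), and its beta subunit gene Hadhb by -0.18. The Hadhb probe set was dim, at 3.99 to 4.25 and under the median on all arrays. The thiolase Acaa2 and the hydratase Echs1 differed by -0.14 and -0.08.

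Electrons leave the dehydrogenases through the flavoprotein genes Etfa and Etfb and the oxidoreductase gene Etfdh. These differed by -0.08, -0.11 and -0.20, and all 3 overlapped between groups. Etfdh stood at 10.16 in SHH 31 and between 10.61 and 10.71 in the other 5 livers, so that it differed by -0.04 without that mouse.

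Among genes of uptake, activation and thioesterases outside the peroxisome, the mitochondrial thioesterase gene Acot2 gave 6.43, 6.70 and 6.54 in GFP livers and 6.20, 6.14 and 5.65 in SHH livers. Its groups did not overlap, and its difference of -0.56 (95% interval -0.94 to -0.17; 1.47-fold lower; limma, adjusted p = 0.542) was the widest outside the peroxisomal genes. The cytosolic paralog Acot1 differed by -0.37 (4.57 to 5.06 in SHH against 4.90 to 5.53 in GFP livers). Acot1, Acot2, Acot3 and Acot4 all lie on chromosome 12 and are alike in sequence, so their signals may be partly shared. The fatty acid binding protein gene Fabp1 differed by -0.23, the transporter and ligase gene Slc27a2 by -0.16 and the ligase gene Acsl5 by 0.00, all with overlapping groups.

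The 3 remaining members had small differences. Bdh1, which makes the ketone body beta-hydroxybutyrate from acetoacetate, gave 7.98, 7.74 and 7.91 in GFP livers and 7.76, 7.75 and 7.74 in SHH livers, a difference of -0.12 (95% interval -0.40 to 0.15). Fgf21, a liver hormone induced in fasting, differed by 0.23 (95% interval -0.19 to 0.65), and was below the array median on 5 of 6 arrays. Ppargc1a, a coactivator of PPARA, differed by -0.10, and by 0.02 without SHH 31.

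**Figure D3:**
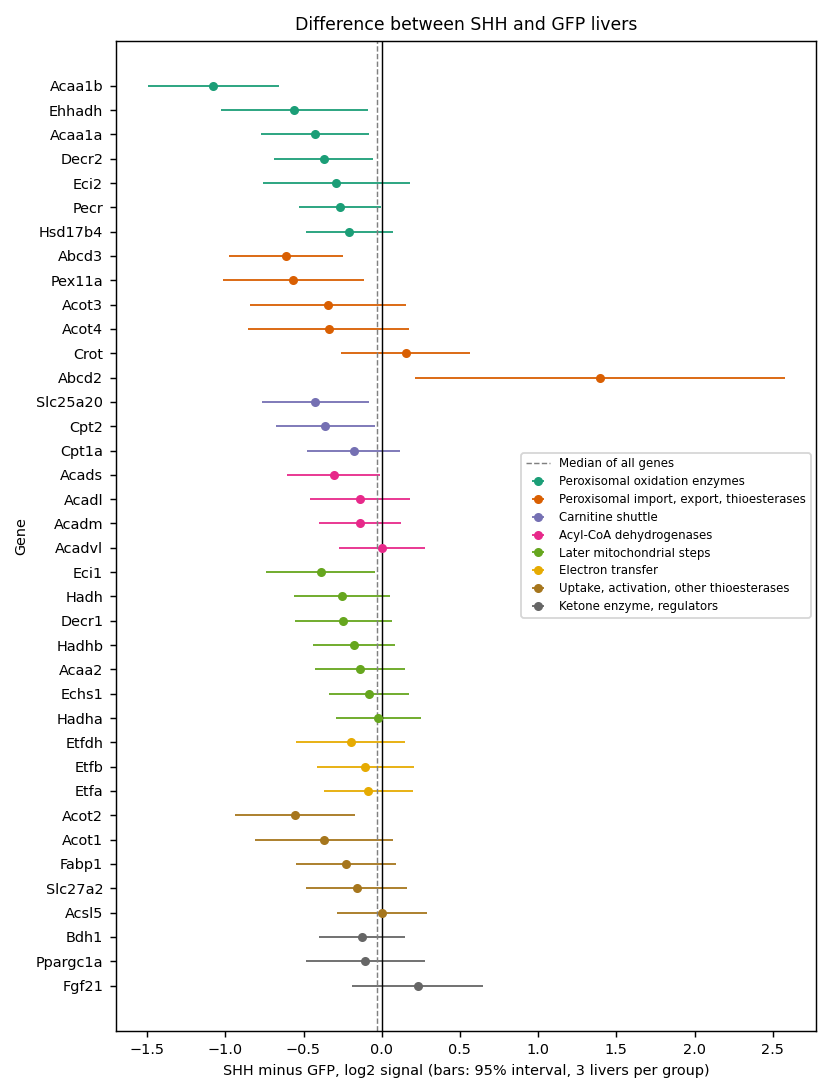
Difference of mean log2 signal, SHH minus GFP, for each of the 38 measured genes (dots) with its 95% interval from the limma fit (bars; 3 livers per group), coloured by role; the dashed line is the median of all genes, -0.03. Acaa1b lies farthest below 0 and Abcd2 farthest above it; most mitochondrial dots lie between -0.45 and 0.

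Set side by side, the 13 measured peroxisomal members had a median difference of -0.34 and the 17 mitochondrial members -0.18. Lower means were seen in 11 of 13 and 16 of 17, an unadjusted p under 0.05 (limma) downward in 7 and 4, and no overlap in 6 and 8. Over all genes 56.2% had a lower mean and 4.01% were lower at that p. Every SHH liver lay below every GFP liver for 7.25% of all genes. The medians per liver were -0.18, -0.35 and -0.44 for peroxisomal and -0.07, -0.17 and -0.27 for mitochondrial members in SHH mice 26, 28 and 31. The peroxisomal median was thus the lower in each SHH liver, but the peroxisomal genes also varied more among GFP livers (-0.08 to 0.10, against -0.03 to 0.02). On means in place of medians the order turned in SHH 26 (-0.07 against -0.09), where Abcd2 was highest. The gap on means, peroxisomal minus mitochondrial, was widest in a control liver, GFP 21 (-0.17). It was 0.02, -0.16 and -0.09 in SHH mice 26, 28 and 31. Whether both sets differ from each other was not tested.

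Of 21 other peroxisomal oxidation genes, 17 had lower means, with a median of -0.13. At an unadjusted p under 0.05 (limma) downward, where 4.01% of all genes lay, there were 3. These were Crat, the carnitine acetyltransferase (-0.54; limma, adjusted p = 0.446), the peroxisomal protease Lonp2 (-0.32) and the CoA diphosphatase Nudt7 (-0.45). Of 22 other mitochondrial genes, 19 had lower means with a median of -0.16. Acacb, which makes the malonyl-CoA that blocks Cpt1a, differed by -0.51 (limma, adjusted p = 0.521), and its 3 SHH livers (6.01 to 6.42) lay below the GFP livers (6.60 to 6.83). Also among these genes, the carnitine transporter Slc22a5 differed by -0.33, Acad10 by -0.35 and the thioesterase Acot9 by 0.60. The 8 other ketone body genes that were measured had 4 lower and 4 higher means, a median of 0.04, and none at an unadjusted p under 0.05.

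Among regulators, Ppara gave 8.95, 8.93 and 8.67 in GFP livers and 8.60, 8.20 and 8.05 in SHH livers. All SHH livers were lower, by -0.57 in the mean (limma, adjusted p = 0.524). Pparg (-0.52), the phosphatidate phosphatase Lpin2 (-0.63) and Prkaa2, a catalytic subunit of the energy sensor AMPK (-0.47), also had an unadjusted p under 0.05, as 5 of 21 regulators did in all. Of 32 other PPARA target genes, 27 had lower means, 11 at an unadjusted p under 0.05 downward and 1 upward, with a median of -0.32. For regulators and targets alike, the shares over all genes at that p (limma) were 4.01% lower and 3.33% higher. The lowest p belonged to Me1 (-1.32), Cyp4a31 (-0.75), the lipid droplet gene Fitm1 (-0.89) and the lipase inhibitor gene Angptl4 (-0.80), with limma adjusted p of 0.392 to 0.512. The 1 target higher at that p was Lpl, the lipoprotein lipase, named after its values were seen. It differed by 0.57 (limma, adjusted p = 0.668), and all SHH livers lay above all GFP livers. Pdk4, the kinase that holds back pyruvate oxidation, differed by 0.24, with 6.02 in SHH 28 and 4.90 to 5.12 in the other livers. Cyp4a14, a fatty acid omega-hydroxylase, ranged from 6.78 to 9.67 and differed by -0.24, with GFP livers (8.03 to 9.67) and SHH livers overlapping. Cyp4a10 was not analysed here.

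Genes of the same organelles outside fatty acid oxidation gave a measure of the surroundings. Of 15 genes in a peroxisome assembly list, 13 had lower means with a median of -0.17. Of 35 genes in a citrate cycle and respiratory chain list, 30 had lower means with a median of -0.12. The assembly list also held Pxmp2, Pxmp4 and Mavs, which are not assembly factors, and the respiratory list Vdac1 and Tfam, which belong to neither pathway. None of either list had an unadjusted p under 0.05. Every SHH liver lay below every GFP liver for 6 of 15 and 8 of 35 of them, against 7.25% of all genes and 39.5% of the members. Lower means were about as frequent in both lists as among the members (86.8%), so that trait was not particular to fatty acid oxidation. The mitochondrial members' median (-0.18) thus lay close to that of the respiratory list and the peroxisomal members' (-0.34) further from that of the assembly list; neither gap was tested.

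**Figure D4:**
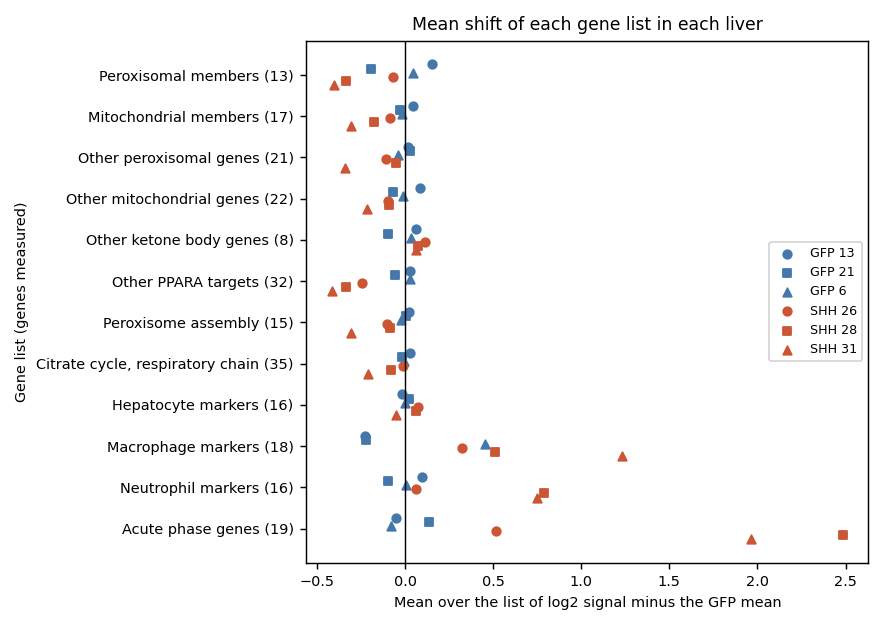
Mean over each gene list of log2 signal minus the mean of the GFP livers, in each liver (blue GFP, red SHH; shapes are mice), with the number of genes measured in brackets. In the PPARA target list and in the mitochondrial members the 3 SHH livers lie below the GFP livers, whereas hepatocyte markers stay near 0 and the acute phase list reaches 2.48 in SHH 28.

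Beside these values stand those of markers of inflammation and of other cells, none of which passed the threshold over all genes. Of all genes, 56.2% had a lower mean in SHH livers. Acute phase genes, which hepatocytes make under inflammation, had a mean shift of 0.51, 2.48 and 1.96 in SHH mice 26, 28 and 31. In mean 18 of 19 were higher, and 18 were at an unadjusted p under 0.05 (limma) upward, against 3.33% of all genes. The rises of Mt1, Mt2 and Saa3 were 3.12, 4.30 and 1.81. Of 18 macrophage and Kupffer cell markers, 17 had higher means, with list means of 6.86 to 7.76 in SHH and 6.30 to 6.99 in GFP livers (Mpeg1 1.44, Itgam 0.84 and Cd163 0.96 higher). Of 16 neutrophil markers 13 had higher means, with list means of 3.87 to 4.60 against 3.71 to 3.90 (Cxcr2 0.87, Retnlg 1.55 and S100a9 1.84 higher). Among these neutrophil markers Fcnb (-0.20), Itgb2l (-0.22) and Cd177 (-0.07) were lower. Ly6g, Mpo, Camp, Fcnb and Itgb2l lay below the median of every array. Retnlg and S100a9 lay below it on 4 of 6 arrays, and Cxcr2 and the macrophage marker Itgam on 3. T and natural killer cell markers had 10 of 12 higher means (4.11 to 4.82 against 4.01 to 4.10, with Cd3g 1.02, Cd8a 0.55 and Gzma 0.80 higher). Klrb1c (-0.14) and Prf1 (-0.10) were lower. The raised genes were dim too: Cd3g, Cd8a and Gzma lay below the array median on 3, 4 and 5 of 6 arrays. B and plasma cell markers had 9 of 9 higher means (4.60 to 4.98 against 4.36 to 4.43, with Jchain 1.46 and Ighm 1.38 higher). Among them Pax5, Mzb1, Blk, Ms4a1 and Cd79b differed by only 0.00 to 0.10. Cd79a, Blk and Ms4a1 lay below the median of every array. Stellate cell and fibroblast markers had 10 of 12 higher means (6.56 to 6.68 against 6.34 to 6.47, with Lum 0.70 and Postn 0.97 higher). In that last list Acta2 (-0.33) and Rgs5 (-0.11) were lower, and Pdgfrb, Lrat and Reln differed by only 0.02 to 0.08. Endothelial markers were lower in mean for 9 of 10 (6.07 to 6.71 against 6.38 to 6.79), and bile duct markers for 3 of 7 (4.05 to 4.12 against 3.99 to 4.12). Their part in the lower oxidation signals was not tested.

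Hepatocyte markers, by contrast, had lower means for 6 of 16, with a median difference of 0.02 and list means of 12.13 to 12.25 in SHH against 12.16 to 12.20 in GFP livers. Only Fgb, a fibrinogen chain that is itself an acute phase gene, had an unadjusted p under 0.05, at 0.31 higher. Alb was the highest signal on every array, and Ttr, Ahsg and Cyp2e1 had group means of 13.15 to 13.38. So near the top of the scale, differences may be compressed.

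Promoter windows from 250 bases before to 50 after the annotated start (RefSeq, GRCm38.p6) were found for 36 of the 40 genes, 40 windows in all; Hsd17b4, Abcd2, Acaa2 and Decr1 had none. On either strand, 5 motifs were searched, and matches of different motifs may overlap. A direct repeat of AGGNCA with 1 base between the copies, the form of site that PPARA binds with its partner RXR, was in 1 of 40 member windows and in 0.381% of all 32851 windows. That window was of Fabp1, shown from 87 to 35 bases before the start (chr6:71199792-71199844, plus strand) with the match, on the other strand, in capitals.
Fabp1: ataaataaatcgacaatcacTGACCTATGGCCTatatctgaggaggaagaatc
The half-site AGGTCA alone was in 22.5% of member windows and 16.3% of all windows, the GC box in 62.5% and 35.7%, the CCAAT box in 47.5% and 37.4%, and the TATA box TATAAA in 7.50% and 13.6%.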

How the data were processed

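Liver RNA of 6 mice, 3 per group, was hybridised to Affymetrix arrays after Trizol extraction and biotin labelling, as the labels' protocols state. The deposited values are log2 signals made with RMA, per the submitters' processing notes; neither its version nor the probe set level is given in the sources used here. RMA brings the distributions of the arrays close to each other, so a shift common to all genes could not be measured. Array medians over all probe sets still ran from 4.36 to 4.39 in GFP livers and from 4.32 to 4.40 in SHH livers. The platform annotation gave 23521 of 41345 probe sets 1 gene, 1814 several and 16010 none here.

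SHH and GFP livers were compared over 22180 genes by lmFit and eBayes of limma 3.58.1, run under R 4.3.3 (two-sided, Benjamini-Hochberg over all genes), with no level filter and no covariate. Adjusted p-values and 95% intervals are from that fit. It was also run on simulated data with independent genes and differences wider than those of most members. That check therefore did not cover small differences, and the intervals were not checked. An exact permutation test of 3 against 3 cannot go below p = 0.1, so none was used. Folds were back-calculated from log2 differences. The members and all gene lists were chosen with earlier results of these data known, so lists are described by counts and medians with no test. Named were all members, fixed regulators and targets, and from each other list the few genes with the smallest unadjusted p under 0.05. The samples are separate mice by their numbers, with 1 array each. No depth applies to arrays: their number limits the precision. Promoter sequences are from RefSeq, assembly GRCm38.p6.

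Alternatives took each gene as the average of its probe sets or by its most variable one (interquartile range), kept only the brighter genes (above the median gene), normalized again by quantiles or by array medians, used trend or robust in eBayes or weighted the arrays. Others set the threshold at 0.1, tested every probe set separately, or left out each mouse in turn.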

Additional observations from a re-analysis of the deposited data

How the results depend on the processing

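No paired analysis was possible because the groups share no mouse number. With each mouse left out in turn, the genes past the threshold were 0 to 16 lower and 0 to 30 higher, and the members past it 0 to 1 lower and 0 higher; all calls came without SHH 26. Every other setting, a threshold of 0.1 included, called 0 genes. Members at an unadjusted p under 0.05 downward were 12, and 4 to 11 with 1 mouse left out; members with lower means were 33, and 31 to 35. Equal array medians gave 8 members at that p, 32 lower means and a median over all genes of -0.0047. The median of Bdh1, Fgf21 and Ppargc1a lay between -0.166 and 0.0194 with 1 mouse left out, above 0 without SHH 31, where 1 of the 3 means was lower in place of 2. The peroxisomal, mitochondrial and uptake medians stayed below 0 in all settings. Of 38 members, 33 kept their sign in the fits per gene and 5 did not: Crot (-0.00986 without GFP 13, highest 0.332 without GFP 21), Acadvl (-0.0628 to 0.0477 with 1 mouse left out, below 0 without GFP 21 or SHH 26), Hadha (0.00118 with equal array medians, -0.0781 to 0.0183 with 1 mouse left out, above 0 without GFP 6 or SHH 31), Acsl5 (-0.00599 with a second quantile normalization, -0.0715 to 0.0698 with 1 mouse left out, below 0 without GFP 13 or SHH 26) and Ppargc1a (-0.273 to 0.0194, above 0 without SHH 31). The cause was not tested.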
